A study of Homo sapiens with 2 samples.

Results

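The interferon-stimulated effector genes are a fixed list of 48 genes. It holds effectors that interferons switch on, together with the STAT and IRF factors that switch them on. The values of these genes were compared between human corneal epithelial cells (HCECs) transfected with a miR-184 mimic and HCECs transfected with a negative control (NC). Members were found by symbol among array features that carry exactly 1 gene symbol, and 45 of the 48 had such a feature, out of 22368 genes measured in all. *STAT2* had no feature named for it, and *IRF9* and *UBA7* lay on features shared with a second symbol, so these 3 were not analysed here.

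HCECs are a corneal epithelial line immortalized with the SV40 large T antigen, a viral protein that binds p53 and the retinoblastoma protein, and both cultures carry it. The miR-184 group was given 50 nM of a synthetic duplex that supplies mature miR-184. The NC group was given 50 nM of NC, and the paper calls the NC of its mouse injections an irrelevant oligonucleotide. Both groups were transfected with Lipofectamine RNAiMAX. The paper gives serum-containing medium with insulin and EGF for the culture of HCECs and does not state the medium during transfection. RNA was taken at 48 h and hybridised to the Human Transcriptome Array, 1 array per condition. With no replicate, no difference below has an error or a *P*-value, the number of arrays limits the precision, and an effect of miR-184 cannot be told apart from a difference between the 2 cultures. Bulk RNA also cannot tell fewer expressing cells from less RNA per cell.

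Cells release type I or type III interferon after sensing viral nucleic acid, and its receptors activate the Janus kinases JAK1 and TYK2. These phosphorylate STAT proteins, which join IRF9 to form the complex ISGF3. ISGF3 binds the interferon-stimulated response element (ISRE) in promoters, and the induced proteins block virus entry, RNA replication and release. Epithelia hold some of these transcripts without infection, and double-stranded RNA is itself a trigger of the pathway. Whether the mimic and the NC differ as triggers was not tested.

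The miR-184 sequence, which only the miR-184 cells were given, and promoter elements that many but not all matched members hold are shown first. Mature miR-184, with its seed (bases 2 to 8) in capitals, lies in the GRCh38.p14 RefSeq annotation at chr15:79209840-79209861 on the plus strand.

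hsa-miR-184: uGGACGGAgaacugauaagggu

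Of the 45 measured members 37 were matched by symbol to a RefSeq promoter (GRCh38.p14), taken as 250 bases before to 50 bases after the annotated start. *IRF7*, *IFIT2*, *OAS2*, *OASL*, *USP18*, *MX2*, *GBP2* and *IFITM2* were not matched. The ISRE core was searched on both strands as GAAA, then 2 bases of any kind, then GAAA, and was present in 24 of the 37 promoters (64.9%), against 3.65% of all 27305 promoters of that length. A longer form, in which the same letters are followed by CT and which is contained in the core matches, was present in 14 of the 37 (37.8%), against 0.271% of all promoters. The gamma-activated site (GAS), searched as TTC, 3 bases of any kind and GAA, can overlap an ISRE and was present in 10 of the 37 (27.0%), against 7.88% of all promoters. The windows below show the core in capitals, on the strand of the gene, for 7 members that were at least 2 times lower in miR-184 cells and hold the core before the start site.

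BST2, chr19:17405741-17405770, minus strand: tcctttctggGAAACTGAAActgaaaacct
IFI6, chr1:27672329-27672358, minus strand: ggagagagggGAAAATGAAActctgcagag
IFI6, chr1:27672288-27672317, minus strand: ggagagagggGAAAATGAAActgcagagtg
LGALS3BP, chr17:78979962-78979991, minus strand: gtggtttctgGAAATCGAAAgtagactctt
IFI27, chr14:94110631-94110660, plus strand: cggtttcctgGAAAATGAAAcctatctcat
ISG15, chr1:1013380-1013409, plus strand: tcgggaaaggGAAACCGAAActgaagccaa
IFITM1, chr11:313990-314019, plus strand: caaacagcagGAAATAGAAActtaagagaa
IFI44L, chr1:78620365-78620394, plus strand: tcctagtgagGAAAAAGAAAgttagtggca

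In *BST2* the core starts 130 bases before the start site and a second, overlapping core starts 124 bases before it. *IFI6* holds the same core with the same bases before it in 2 places, 156 and 115 bases before the start site. For comparison, 4 members that stayed under 1.5 times were chosen after their values were seen, and they hold the core as well, on either strand.

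ISG20, chr15:88638937-88638966, plus strand: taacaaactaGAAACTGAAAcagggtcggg
SAMD9, chr7:93118096-93118125, minus strand: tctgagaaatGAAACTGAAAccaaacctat
IFIT1, chr10:89392497-89392526, plus strand: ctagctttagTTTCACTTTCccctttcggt
GBP1, chr1:89065316-89065345, minus strand: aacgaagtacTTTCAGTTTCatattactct

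The difference reported for each gene is the log2 signal of miR-184 cells minus that of NC cells, and a gene is counted as lower or higher from a fold change of 1.5. That is the ratio the study used for lower genes, applied here in both directions and without its *P*-value criterion, which 1 array per condition does not allow. Of the 45 members 21 were lower by that much (46.7%) and none was higher. Of all 22368 genes 4.17% were lower and 3.74% higher. The median difference of the members was -0.56, which is 1.47 times lower, against 0.04 over all genes, and the interquartile range of the members ran from -0.96 to -0.17. A total of 39 members lay below 0 and 6 above, against 9059 below and 12386 above of all 22368 genes. At 2 times, 11 members were lower, against 1.35% of all genes. Of the 45 members 14 were among the 500 largest falls of all 22368 genes.

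Every measured member had a mean signal at or above the median of all genes (4.24), where differences were larger in general. Of the 11184 genes at or above that median 7.77% were at least 1.5 times lower, 6.25% higher and 2.66% at least 2 times lower. In that set 5723 genes lay below 0 and 5194 above. Of the 2032 other genes whose mean signal lay within the interquartile range of the members (9.15 to 12.66) 9.74% were lower and 9.45% higher, with a median of -0.02. Across the 45 members the difference followed the mean signal only loosely (Pearson's r -0.20, Spearman's rho -0.14), a description over genes that share the same 2 arrays. *BST2* is the 1 member that the study's table of predicted targets contains, and that table was chosen on these arrays for lower values. Of the other 44 members 20 were lower, with a median of -0.55.

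**Figure D1:**
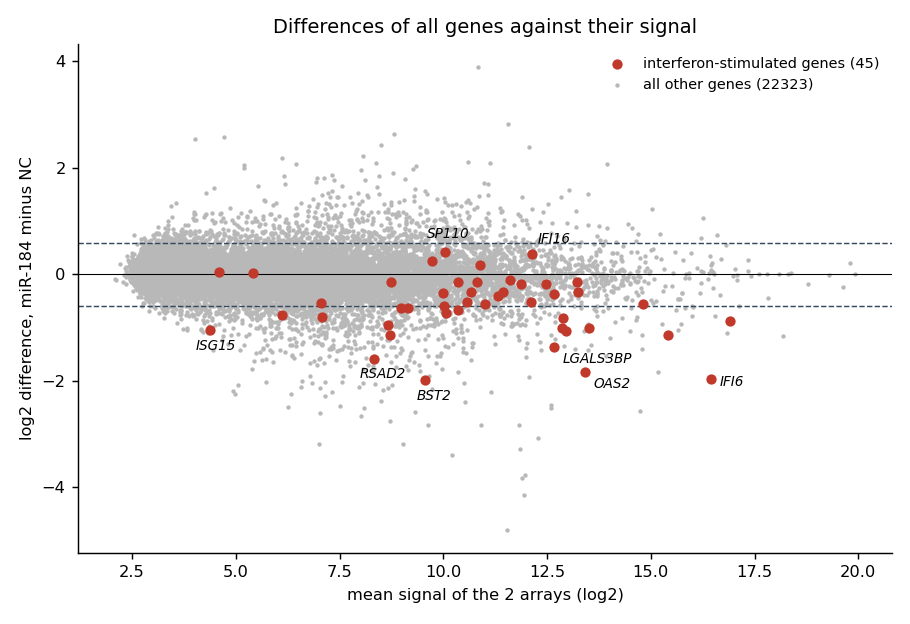
Log2 difference (miR-184 minus NC) of each gene against its mean log2 signal over the 2 arrays, with 1 array per condition. Red points are the 45 interferon-stimulated genes and grey points the 22323 other genes, and dashed lines mark 1.5 times. Of the red points 21 lie on or below the lower line and none above the upper one.

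The transcription factors on the list were represented by a single lower gene. *IRF1*, which binds the same element as ISGF3 and is itself induced through GAS, had a log2 signal of 6.68 in miR-184 cells and 7.47 in NC cells, a difference of -0.79. *IRF7*, which amplifies interferon production, read 4.62 in miR-184 cells and 4.58 in NC cells.

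Proteins that act in the plasma or endosomal membrane included the lowest member of all. *BST2* encodes tetherin, which holds budding enveloped viruses at the cell surface, and had a log2 signal of 8.57 in miR-184 cells against 10.56 in NC cells, 3.96 times lower. Its fall ranked 47 among all 22368 genes. The 3 IFITM proteins stop virus envelopes from fusing with cell membranes, and their genes were lower together. *IFITM2* read 12.44 in miR-184 cells and 13.50 in NC cells, and *IFITM1* 12.36 in miR-184 cells and 13.37 in NC cells. *IFITM3* read 16.47 in miR-184 cells and 17.35 in NC cells. Their differences of -1.06, -1.01 and -0.87 lie close to each other, but the 3 genes are related in sequence and their probes may detect each other's transcripts. Without them 18 of 42 members were lower. The phospholipid scramblase gene *PLSCR1* differed by -0.13, so that 4 of the 5 genes of this group were lower.

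Among the proteins that recognise or degrade RNA, the OAS genes were lower by 1.5 times and the IFIT genes were not. The OAS enzymes make oligoadenylates that activate RNase L, and all 3 of their genes were lower. *OAS2* had a log2 signal of 12.49 in miR-184 cells and 14.32 in NC cells (3.55 times lower). *OAS1* read 8.15 in miR-184 cells and 9.29 in NC cells (2.20 times lower), and *OAS3* 12.48 in miR-184 cells and 13.29 in NC cells (1.75 times lower). *OASL*, a related protein that makes no oligoadenylate and binds RIG-I, read 8.20 in miR-184 cells and 9.15 in NC cells, a difference of -0.96.

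The IFIT proteins bind RNA ends that lack host modifications, and none of their 4 genes reached 1.5 times. *IFIT3*, which stabilises the IFIT1 protein, read 11.86 in miR-184 cells and 12.37 in NC cells (-0.51). *IFIT1* itself, the sensor of incomplete caps, read 9.83 in miR-184 cells and 10.18 in NC cells (-0.36). The other 2, *IFIT5* and *IFIT2*, each differed by -0.14. The exonuclease gene *ISG20* differed by 0.02. With no replicate, the gap between the 2 families is given as values only.

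ISG15 is a ubiquitin-like protein that is attached to other proteins by a chain of enzymes, UBA7, UBE2L6 and the HERC ligases, and removed by USP18. *ISG15* had a log2 signal of 3.87 in miR-184 cells and 4.91 in NC cells, 2.07 times lower. Its signal in miR-184 cells lay below the median of all genes (4.24), near the range of the interferon genes described further on, so the ratio may understate the difference. The conjugating enzyme *UBE2L6* read 8.84 in miR-184 cells and 9.47 in NC cells, and the ligase *HERC5* 8.67 in miR-184 cells and 9.31 in NC cells, both with differences of -0.64. *HERC6*, the main ISG15 ligase in mouse, was just under the threshold at -0.56. *USP18* was above 0, with 10.97 in miR-184 cells and 10.80 in NC cells. USP18 also blocks signaling at the receptor subunit IFNAR2, and its difference of 0.17 stayed under the threshold.

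*RSAD2* encodes viperin, which makes a nucleotide analog that ends viral RNA chains, and *CMPK2* a mitochondrial nucleotide kinase from the neighbouring gene. Both were lower. *RSAD2* had a log2 signal of 7.54 in miR-184 cells and 9.12 in NC cells (2.99 times lower), and *CMPK2* read 5.73 in miR-184 cells and 6.50 in NC cells (1.70 times lower).

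Of the genes tied to mitochondria and apoptosis, 2 of 3 were lower. *IFI6*, an antiapoptotic membrane protein, had a log2 signal of 15.46 in miR-184 cells and 17.43 in NC cells, 3.90 times lower. *IFI27*, of the same small protein family, read 14.84 in miR-184 cells and 15.98 in NC cells (2.20 times lower). *XAF1*, which counters the caspase inhibitor XIAP, differed by -0.36.

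Of the 5 dynamin-like GTPases 1 was lower. MX1 and MX2 trap incoming viral nucleoproteins or capsids. *MX2* stood at the threshold, with 9.74 in miR-184 cells and 10.32 in NC cells (1.5 times lower), and *MX1* differed by -0.40. The guanylate-binding proteins attack vacuoles of intracellular microbes and respond mostly to interferon-gamma. *GBP2* differed by -0.54, *GBP1* by -0.19 and *GBP3* by -0.17, all below 1.5 times.

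ADP-ribosylation genes gave 1 lower member of 4. *PARP12*, a mono-ADP-ribosyltransferase, read 10.02 in miR-184 cells and 10.69 in NC cells (-0.67), and *PARP14*, of the same enzyme family, lay just under the threshold at -0.56. *PARP9* and *DTX3L*, whose proteins form a complex with ubiquitin ligase activity, differed by -0.32 and -0.15.

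The only functional group of the list with every member above 0 was that of nuclear sensors and nuclear bodies, with 3 genes. *SP110* had a log2 signal of 10.24 in miR-184 cells and 9.82 in NC cells (0.42). *IFI16*, a sensor of nuclear DNA, read 12.32 in miR-184 cells and 11.94 in NC cells (0.39). *SP100*, a component of PML nuclear bodies, read 9.85 in miR-184 cells and 9.59 in NC cells (0.26). None of the 3 reached 1.5 times, and all 3 stayed above 0 under every scaling of the arrays tried. The gene *PML*, outside this list and in the study's table of predicted targets, read 6.35 in miR-184 cells and 7.38 in NC cells (-1.03).

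The remaining 7 members were all below 0, and 3 of them were lower by 1.5 times. *LGALS3BP*, a secreted galectin-binding glycoprotein, had a log2 signal of 11.98 in miR-184 cells and 13.34 in NC cells, 2.57 times lower. *IFI44L* read 13.00 in miR-184 cells and 14.01 in NC cells (just over 2 times lower), and *IFI35*, a partner of NMI, 9.70 in miR-184 cells and 10.42 in NC cells (1.65 times lower). *EPSTI1* differed by -0.52, the antiviral genes *SAMD9L* and *SAMD9* by -0.33 and -0.32, and *IFI44* by -0.10. *IFI44* and *IFI44L*, which are adjacent paralogs, thus differed from each other by 0.90.

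**Figure D2:**
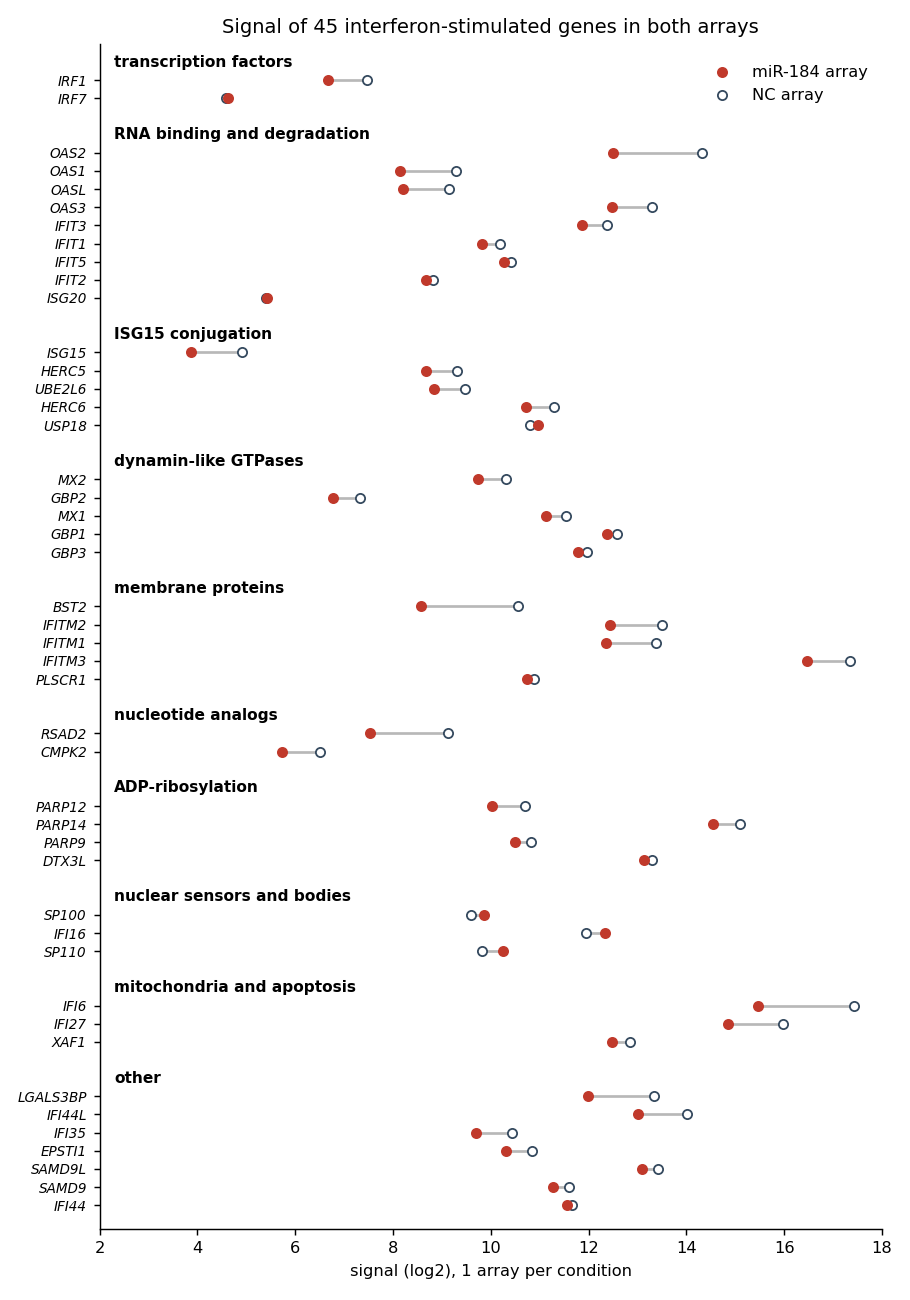
Log2 signal of the 45 measured members in miR-184 cells (red) and NC cells (open), grouped by function, with 1 array per condition and a grey line joining both. The red point lies to the left in 39 genes, with the lowest difference (-1.98) in *BST2*, and to the right in 6, among them *SP110*, *IFI16* and *SP100*.

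Many members lie next to each other on the chromosome. In the order of protein-coding genes of the RefSeq annotation, 28 of the measured members fall into 11 clusters with at most 3 other genes between neighbouring members. Within 6 clusters the members differed from each other by less than 0.37, down to 0.01 for *SAMD9* and *SAMD9L*. The widest spreads were those of the OAS cluster (1.02), of *IFI44L* and *IFI44* (0.90) and of *CMPK2* and *RSAD2* (0.81). *SP110* and *SP100* form the 1 cluster above 0.

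The genes between the members and the nearest measured gene on each side served as neighbours. None of these 26 genes was lower by 1.5 times and 2 were higher, with a median of 0.07, whereas 11 of the 28 clustered members were lower, with a median of -0.53. Only 11 of the neighbours had a mean signal at or above the median of all genes, and those had a median of 0.25. Beside *SAMD9* lay *CDK6*, a kinase of the G1 phase, with 7.58 in miR-184 cells and 6.16 in NC cells (1.42). Beside *SP100* lay *CAB39*, a scaffold of the kinase LKB1, with 11.30 in miR-184 cells and 9.97 in NC cells (1.33). *KPNA1*, the neighbour of *PARP9* and an importin, differed by 0.53.

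**Figure D3:**
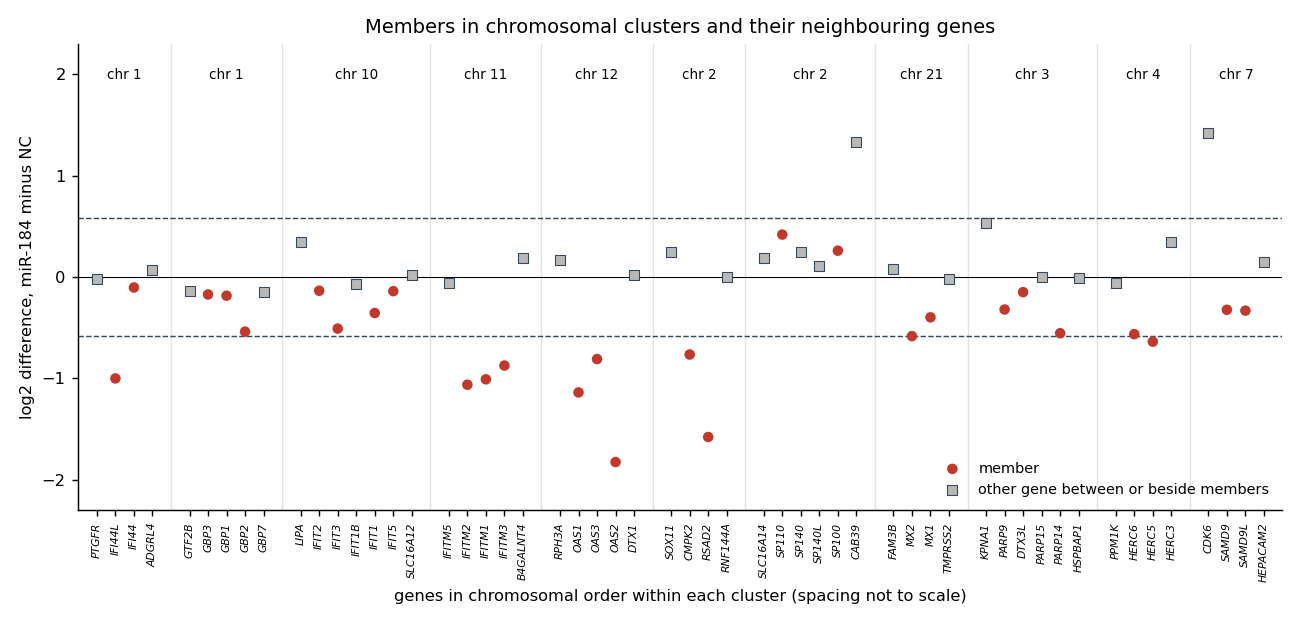
Log2 difference (miR-184 minus NC) of the 28 members in 11 chromosomal clusters (red circles) and of the 26 other genes between or beside them (grey squares), in chromosomal order, with dashed lines at 1.5 times. No square lies below the lower line, and the squares of *CAB39* and *CDK6* lie above the upper one.

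The ISRE core did not divide the members by size of change. It was present in 11 of 17 matched members that were lower (64.7%) and in 13 of the other 20 (65.0%). The median difference was -0.54 for the 24 members with the core and -0.56 for the 13 without it. The 6 lower members with no core in this window were *RSAD2*, *CMPK2*, *UBE2L6*, *OAS1*, *IRF1* and *IFI35*, and of these *OAS1*, *IRF1* and *IFI35* had a GAS match. *SP110*, *SP100* and *IFI16* had neither.

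Genes outside the list were also sorted by these letters. They include genes of the further interferon lists described below, such as *RTP4*, *LAP3*, *DDX60* and *DDX60L*. The counts are therefore not independent of those lists. Among 458 measured genes with the core, members left out, 5.68% were at least 1.5 times lower and 3.93% higher, against 3.92% and 3.62% of 14863 genes without it. At or above the median signal, where every member lies, 11.1% of 216 genes with the core were lower and 7.41% higher (median -0.06), against 6.90% and 6.04% of 8126 genes without it (median -0.01). The longer form was found in 35 such genes, of which 4 were lower and none higher, with a median of -0.07 against 0.04 in those without it. The 4 are named after their values were seen. They were *RTP4* (-1.15), *HLA-F* (-1.01) and *B2M* (-0.67), the last 2 of which encode parts of MHC class I molecules, and the histone gene *H2BC10* (-1.35). Of these 35 genes 18 were at or above the median signal, where 22.2% were lower with a median of -0.20, against 6.98% and a median of -0.01 in the 8324 genes without the longer form.

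The steps before the effectors were compared at the same threshold, which 4.17% of all genes passed downward and 3.74% upward. These lists were chosen with earlier results of these data known. Of 22 interferon genes 21 were measured, and none passed 1.5 times in either direction (median 0.07). A total of 20 of them had a mean signal below the median of all genes, with at most 3.84 in miR-184 cells and 3.84 in NC cells. *IFNB1*, the interferon that most cells make first, read 3.24 in miR-184 cells and 3.04 in NC cells. The exception was *IFNE*, an epithelial interferon, with 5.53 in miR-184 cells and 5.68 in NC cells.

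Receptors and Janus kinases did not pass the threshold in any of 8 measured genes (median -0.09). *IL10RB*, a subunit of the type III receptor, had the largest difference (-0.42), followed by *TYK2* (-0.28), *IFNGR2* (-0.27) and *JAK1* (0.18). The type I receptor subunits *IFNAR1* and *IFNAR2* differed by 0.10 and -0.06. Among 10 other STAT and IRF factors none was lower and 1 was higher (median -0.01). That was *STAT3*, which carries signals of the IL-6 family, with 12.07 in miR-184 cells and 11.37 in NC cells. *IRF2*, a competitor of *IRF1* at the same element, was at -0.56, and *IRF3*, the factor activated by MAVS and TBK1, at -0.35.

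Of 12 genes that attenuate this signaling none was lower and 2 were higher (median -0.10). *PTPN11*, the phosphatase SHP2, read 13.09 in miR-184 cells and 12.13 in NC cells (0.96). *SOCS3*, a feedback inhibitor induced by STAT3, read 4.93 in miR-184 cells and 4.20 in NC cells (0.73). *SOCS1*, the feedback inhibitor of interferon receptors, differed by -0.12, and *PIAS4*, a SUMO ligase, by -0.52.

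Among 10 genes of double-stranded RNA sensing 2 were lower and none higher (median -0.17). *TLR3*, the endosomal sensor, read 7.33 in miR-184 cells and 9.04 in NC cells (-1.71). *MAVS*, the adaptor of the cytosolic sensors, read 6.41 in miR-184 cells and 7.71 in NC cells (-1.31), and it stands in the study's table of predicted targets. The sensors upstream of it differed less, with *RIGI* at 0.03 and *IFIH1* at -0.35.

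A second list of interferon-stimulated genes, outside the first, was lower in part. Of 44 measured genes 12 were lower (27.3%) and 1 was higher, with a median of -0.33, and 35 lay below 0. Of all 22368 genes 4.17% were lower and 3.74% higher, and 9059 lay below 0. At or above the median signal 7.77% were lower and 6.25% higher. Like the first list, this one was chosen with earlier results of these data known. *SAMHD1*, which degrades deoxynucleotides, had a log2 signal of 11.37 in miR-184 cells and 13.83 in NC cells, and *GBP4* read 7.45 in miR-184 cells and 9.16 in NC cells. *TNFSF10*, the death ligand TRAIL, read 4.96 in miR-184 cells and 6.35 in NC cells. *RTP4*, a chaperone of receptor transport, read 4.66 in miR-184 cells and 5.81 in NC cells. *SAMHD1* and *PML* stand in the study's table, and of the other 42 genes 10 were lower, with a median of -0.31. The higher gene was *SLFN5*, of the Schlafen family, with 10.49 in miR-184 cells and 9.48 in NC cells. *DDX60L* was next at 0.58, under the threshold, while its paralog *DDX60* was at -0.26.

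**Figure D4:**
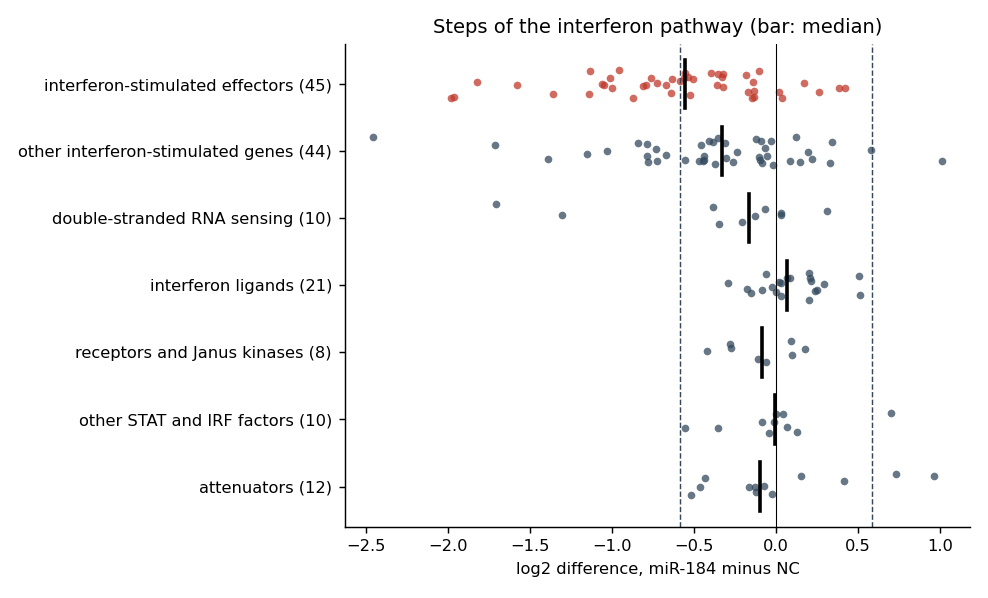
Log2 difference (miR-184 minus NC) of each gene by step of the interferon pathway, with the number of measured genes in brackets, black bars at the medians and dashed lines at 1.5 times. The medians are -0.56 for the effectors, -0.33 for the other interferon-stimulated genes and between -0.17 and 0.07 for the 5 other steps.

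The labelled cell type was checked by its markers. Of 10 epithelial markers 5 read at or above the median of all genes, *KRT5*, *KRT18*, *KRT19*, *CDH1* and *EPCAM*, while the corneal keratins *KRT3* and *KRT12*, the eye factor *PAX6*, *KRT14* and *KRT15* read below it in these cells. Of the 5 at or above it 2 were higher in miR-184 cells, *KRT5* by 0.88 and *CDH1* by 0.75, and *KRT19* was lower, at -0.92. The part of these shifts in the members' differences was not tested. None of 4 leukocyte markers (3.16 to 3.78 in miR-184 cells and 3.09 to 3.26 in NC cells), 5 fibroblast markers or 2 melanocyte markers reached that median. The endothelial cadherin gene *CDH5* did, with 6.77 in miR-184 cells and 8.19 in NC cells, and *PECAM1* did not. Neither the source of the *CDH5* signal nor its part in the differences was tested. The 3 targets the paper names were lower in miR-184 cells, *LASP1* by 7.11 times, *CARM1* by 4.63 times and *CDC25A* by 1.86 times. All 3 stand in the study's table of predicted targets, which was chosen on these arrays for lower values. Their lower values are therefore no separate check of the mimic.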

How the data were processed

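Per the study's methods, total RNA was hybridised to the Affymetrix Human Transcriptome Array and normalized by the authors with Expression Console. What they deposited is a log2 signal for each feature. The labels describe Agilent labelling, and Agilent Feature Extraction 9.1 stands in the submitters' processing notes, but the feature identifiers are Affymetrix ones. Of 65854 features 23730 had 1 symbol in the platform annotation (303 symbols updated through RefSeq), 1539 had several and 40585 were not listed. The brightest feature stood for each of 520 genes with several. Each measured member had 1 feature. Signals have an upper limit of 19.93, which no member reached. No source used here gives the genome build of the array annotation, so the coordinates are those of the RefSeq tables.

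The difference is log2 miR-184 minus log2 NC, with no filter and no test. The study's rounded ratio for 1.5 times places *MX2* (1.4993 times) inside. All members are named, with up to 4 genes of largest difference per further list, the neighbours of clustered members, and other genes chosen after their values were seen. Members and lists were chosen with earlier results of these data known. Alternatives were centring, quantile normalization, loess (span 0.3), averaged features, a signal filter, a threshold of 2 times, and leaving out *BST2* or the IFITM genes. The steps were tested on simulated data. Python 3.11.15, numpy 2.4.6, pandas 2.3.3, scipy 1.17.1, statsmodels 0.14.6 and matplotlib 3.10.9 were used.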

Additional observations from a re-analysis of the deposited data

How the results depend on the processing

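The count of lower members was 21 of 45 as reported, 23 after centring on the median of all genes, 18 after quantile normalization and 20 after loess, and no member was higher under these. At a threshold of 2 times it was 11. The median difference ran from -0.60 after centring to -0.49 after quantile normalization. Of the 21 lower members 18 stayed lower under all 4 ways of scaling or summarising the arrays. Averaging the features of a gene, which is among the 4, could not move any member because each had 1 feature. *MX2* (-0.53), *HERC5* (-0.57) and *UBE2L6* (-0.58) dropped out after quantile normalization, *MX2* also after loess (-0.56), and *HERC6* (-0.61) and *PARP14* (-0.60) came in after centring. *IRF7* and *ISG20*, both close to 0, changed sign after centring. No paired analysis was possible because each condition has 1 array. For the same reason no replicate could be left out.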
